A study of Oryza sativa with 8 samples.

Results

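The auxin carriers of rice (Oryza sativa) described here are 10 loci, 9 of them PIN efflux carrier genes and 1 the influx carrier gene AUX1. They were taken by locus identifier from a deposited table of 55801 loci, and all 10 were listed there. PIN1a is LOC_Os06g12610, PIN1b is LOC_Os02g50960, PIN1c is LOC_Os11g04190 and PIN1d is LOC_Os12g04000. PIN2 is LOC_Os06g44970, PIN9 is LOC_Os01g58860 and PIN10a is LOC_Os01g45550. PIN5a is LOC_Os01g69070, PIN5b is LOC_Os08g41720 and AUX1 is LOC_Os01g63770. Numbering of these genes differs between sources: the RefSeq gene table lists PIN1a, PIN1b and PIN1c each for more than 1 locus, and PIN5b and PIN5c both for LOC_Os08g41720 and for LOC_Os09g32770, so the identifier and not the number defines each gene here. Names of 8 of the 10 loci were found in that table on the same chromosome near the place the identifier implies. PIN1d and AUX1 were not, and their names come only from the rule by which the genes were chosen.

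Messenger RNA from roots was sequenced in 8 libraries, 2 in each of 4 groups. The groups D4_CK and D6_CK carry the treatment label normal and serve as controls, and D4_100X and D6_100X received carbon dots, nanometre-sized carbon particles that the series title places in seed priming. No label explains D4, D6 or 100X, which are used only as names, and none gives the cultivar. They do not say that replicates were separate plants or cultures, and p-values therefore measure the spread between libraries, which may be technical.

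Auxin moves through the root from cell to cell. It enters cells through AUX1-type influx carriers and leaves through PIN proteins, whose placement on 1 face of the cell sets the direction of flow. In Arabidopsis PIN2 carries auxin away from the root tip through the outer tissues, a flow needed for bending towards gravity. PIN5-type proteins lack the long central loop of the other PINs, sit mainly in the endoplasmic reticulum and are tied to auxin balance inside the cell.

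Values are the authors' FPKM, corrected for gene length and library total, so levels can be compared between genes per length. The FPKM denominator recovered from the values was 22.87 M fragments in every library, and between 28619 and 30252 loci were above 0. Levels of the 3 root marker genes summed to between 1587 and 4457 FPKM, whereas the 9 green tissue markers found in the table summed to at most 9.09 FPKM, with 1 or 2 of them at 0 in both libraries of each group. At D4, the replicate 1 libraries of both groups deviated alike from their group means (correlation 0.602 across 22794 loci). Among the 8 carriers with at least 1 FPKM in at least 2 libraries, replicate 1 lay on the same side of replicate 2 in both D4 groups for all except PIN1b. In bulk roots, fewer cells of a type and less RNA per cell cannot be told apart.

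Among the 10 loci, most of the carrier transcript came from PIN1b, AUX1, PIN1a and PIN2. Carrier genes outside the 10 are not in this order, among them LOC_Os11g06820, with group means from 23.5 to 35.5 FPKM. Averaged over the 8 libraries, PIN1b stood at 83.9 FPKM and AUX1 at 83.3 FPKM, and their ranges overlapped. PIN1a followed at 53.8 FPKM and PIN2 at 32.9 FPKM, each separate from its neighbours in the order. PIN9 (10.7 FPKM), PIN1c (6.13 FPKM), PIN1d (4.87 FPKM) and PIN5a (3.97 FPKM) formed a lower tier in which each overlapped the next. PIN10a (0.602 FPKM) and PIN5b (0.254 FPKM) were lowest and overlapped each other.

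**Figure D1:**
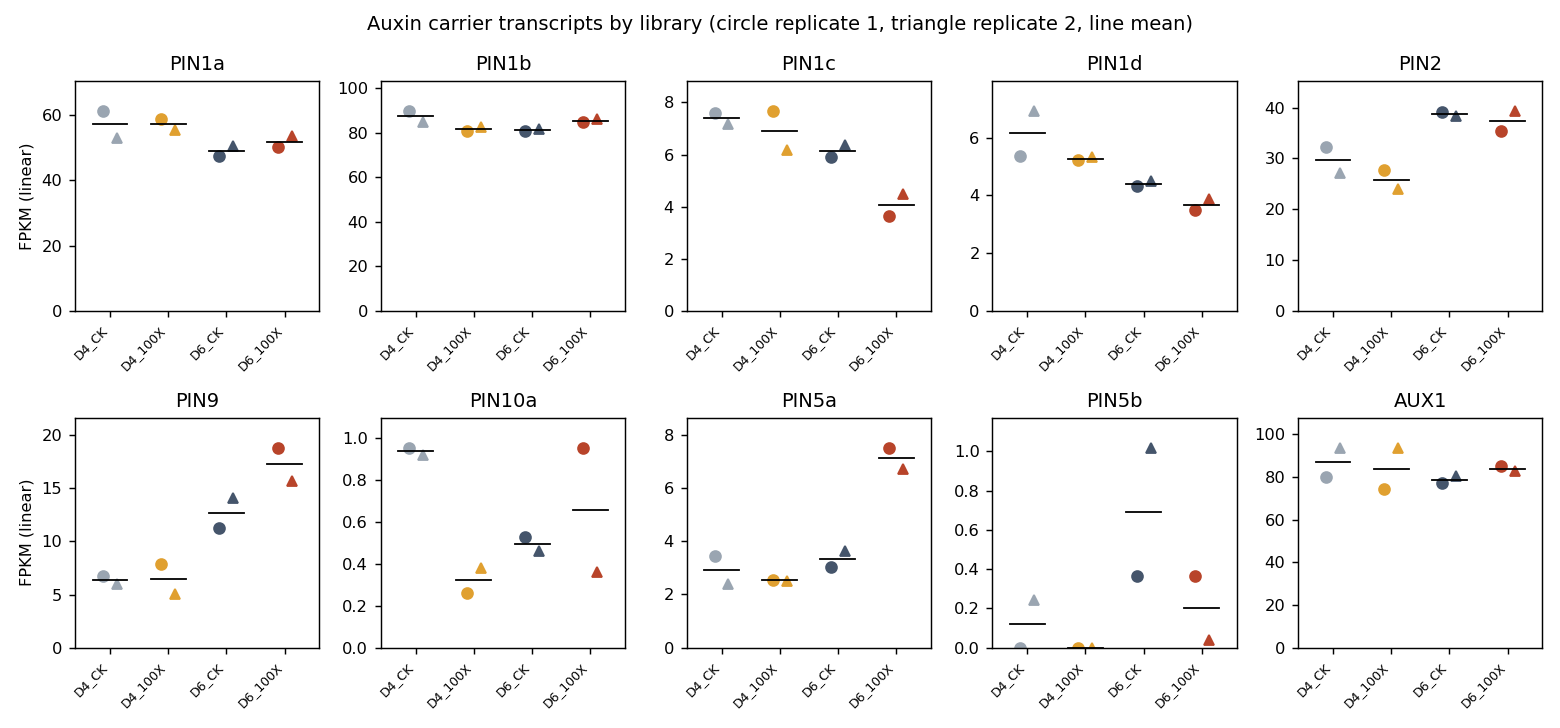
FPKM (linear axis from 0, scaled per gene) of the 10 carrier genes in the 4 groups, with a circle for replicate 1, a triangle for replicate 2 and a line at the mean of both. PIN5a and PIN9 are highest in D6_100X, where PIN1c and PIN1d are lowest, while PIN1b and AUX1 lie in a narrow band across all libraries.

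PIN1b measured 89.7 and 85.0 FPKM in D4_CK, 80.7 and 82.6 in D4_100X, 80.7 and 81.4 in D6_CK, and 84.7 and 86.2 in D6_100X. Its highest library was 1.11 times its lowest, the narrowest range of the 8 carriers with at least 1 FPKM in at least 2 libraries. PIN1a measured 61.2 and 53.1 FPKM in D4_CK, 58.8 and 55.5 in D4_100X, 47.5 and 50.7 in D6_CK, and 50.1 and 53.6 in D6_100X. Its lowest library was D6_CK replicate 1, and of the 4 D6 libraries D6_100X replicate 2 alone exceeded the lowest D4 library.

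PIN1c and PIN1d lie in the nearly identical duplicated ends of chromosomes 11 and 12. How the authors' counting split reads between near-identical copies is not given in the sources used here, so the values of either gene alone are uncertain. PIN1c measured 7.59 and 7.19 FPKM in D4_CK, 7.67 and 6.17 in D4_100X, 5.91 and 6.38 in D6_CK, and 3.64 and 4.51 in D6_100X. PIN1d measured 5.37 and 6.92 FPKM in D4_CK, 5.23 and 5.32 in D4_100X, 4.32 and 4.49 in D6_CK, and 3.49 and 3.86 in D6_100X. Both D6_100X libraries were the lowest of the 8 for each gene. The sum of both genes does not depend on that split except through gene length, but any reads left out for matching both copies would be missing from it. This sum was 13.0 and 14.1 FPKM in D4_CK, 12.9 and 11.5 in D4_100X, 10.2 and 10.9 in D6_CK, and 7.13 and 8.36 in D6_100X. The sum thus had the same low pair of libraries, and the ratio of PIN1c to PIN1d lay between 1.04 and 1.47, a range that the D4 libraries alone covered.

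PIN2, which rice roots need for normal gravitropic bending and root angle, measured 32.2 and 27.1 FPKM in D4_CK, 27.6 and 24.0 in D4_100X, 39.0 and 38.3 in D6_CK, and 35.5 and 39.3 in D6_100X. All 4 D6 libraries were above all 4 D4 libraries, and at D4 replicate 1 was higher than replicate 2 in both groups. PIN9, a PIN type found in monocots and linked in rice to crown root and tiller growth, measured 6.72 and 6.003 FPKM in D4_CK, 7.86 and 5.04 in D4_100X, 11.2 and 14.0 in D6_CK, and 18.8 and 15.7 in D6_100X. Its D6 libraries too were all above its D4 libraries, and the D6_100X pair was above the D6_CK pair. With a highest library 3.73 times its lowest, PIN9 had the widest range of the 8 better expressed carriers.

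PIN10a, a plasma membrane carrier tied in rice to drought responses, stayed under 1 FPKM everywhere. It measured 0.954 and 0.921 FPKM in D4_CK, 0.263 and 0.378 in D4_100X, 0.526 and 0.460 in D6_CK, and 0.954 and 0.362 in D6_100X, from 16 to 58 recovered reads. The D4_CK pair lay above the D4_100X pair, but the D6_100X replicates differed by more than any other pair and spanned both D6_CK values.

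PIN5a, of the short PIN type, measured 3.44 and 2.40 FPKM in D4_CK, 2.55 and 2.49 in D4_100X, 3.01 and 3.63 in D6_CK, and 7.504 and 6.70 in D6_100X, or 78 to 118 recovered reads in the first 6 libraries and 244 and 218 in D6_100X. The D6_100X libraries stood apart from the other 6, all of which lay between 2.40 and 3.63 FPKM. In that group PIN5a, at 7.10 ± 0.566 FPKM (SD, n = 2), ranked sixth of the 10 carriers, above PIN1c at 4.07 ± 0.61 FPKM and without overlap with it, whereas it ranked eighth in each of the other groups. PIN5b, the other short PIN among the 10 loci, was at 0 in 3 libraries, namely D4_CK replicate 1 and both of D4_100X. A count of 0 allows up to 3 reads, or 0.122 FPKM at the recovered gene length, for counting error only. PIN5b measured 0.244 FPKM in D4_CK replicate 2, 0.366 and 1.02 in D6_CK, and 0.366 and 0.0407 in D6_100X, from at most 25 reads. Both D6_CK libraries were above every D4 library, but the replicates of each D6 group differed by more than 2-fold.

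AUX1, which in rice takes part in lateral root initiation and root hair growth, measured 80.0 and 93.6 FPKM in D4_CK, 74.2 and 93.3 in D4_100X, 76.9 and 80.4 in D6_CK, and 84.9 and 82.7 in D6_100X. At D4 replicate 1 was lower than replicate 2 in both groups, and this gap was larger than any difference between group means.

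Carbon dot and control roots were compared at each time to ask which carriers differed with the treatment. At D4 no carrier passed the adjusted threshold. The groups of PIN1b, PIN1d and PIN10a did not overlap, with carbon dot roots lower in each. With 2 libraries per group such separation is common without any difference, and its share over all loci was not counted. Tests used limma on log2(FPKM + 1) over the 22794 loci with at least 1 FPKM in at least 2 libraries, with Benjamini-Hochberg adjustment over all of them and a threshold of 0.05. The 8 carriers other than PIN10a and PIN5b passed this filter. At D4, 0 of these 8 passed the threshold, against 0 of all tested loci (0%). At an unadjusted limma p under 0.05 the counts were 0 carriers and 432 loci (1.9%), and limma voom on recovered reads also called 0 carriers and 0 loci. The median log2 fold change was -0.09 over the carriers and -0.01 over all loci.

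The D4 intervals, from a spread shared by all 8 libraries, set what this fit could have shown. PIN1b, the tightest, had a log2 fold change of -0.10 with a 95% interval from -0.28 to 0.09. PIN9, the loosest, had one of -0.01 with an interval from -0.50 to 0.49. PIN2 had the lowest unadjusted p of the 8 (log2 fold change -0.19 ± 0.12 SE, limma adjusted p = 1). PIN10a, fitted without the filter on low values, had a log2 fold change of -0.55 ± 0.17 (interval -0.97 to -0.14) and a limma adjusted p of 1. PIN5b, fitted likewise, had one of -0.16 (interval -0.71 to 0.40, limma adjusted p = 1).

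At D6, PIN5a and PIN1c were the carriers that differed most between carbon dot and control roots, in opposite directions, and neither passed the adjusted threshold. PIN5a was 2.14 times the control mean, 7.10 ± 0.566 against 3.32 ± 0.435 FPKM (SD, n = 2 each), with no overlap. Its log2 fold change was 0.91 ± 0.16 with a 95% interval from 0.52 to 1.30, and its limma adjusted p was 0.0822. Fitted on the 4 D6 libraries alone, PIN5a had a limma adjusted p of 0.0418, but 697 loci passed in that fit in place of 119. It did not pass by limma voom (adjusted p = 0.0684), with a pseudocount of 0.1 (limma adjusted p = 0.104) or without the filter on low values (0.14). With 1 D6 library left out, its log2 fold change lay between 0.806 and 1.012. PIN1c was at 0.663 times the control mean, 4.07 ± 0.61 against 6.14 ± 0.339 FPKM, also without overlap. Its log2 fold change was -0.50 ± 0.14 (interval -0.84 to -0.16, limma adjusted p = 0.181).

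The remaining 6 tested carriers lay nearer to the controls at D6. PIN9 had a log2 fold change of 0.42 with an interval from -0.07 to 0.92 (limma adjusted p = 0.377). PIN1d had one of -0.21 (interval -0.54 to 0.12, limma adjusted p = 0.501). PIN1b, again with the narrowest interval, stood at 0.07 (interval -0.11 to 0.26, limma adjusted p = 0.692). PIN1a stood at 0.08 (interval -0.16 to 0.32), PIN2 at -0.05 (interval -0.33 to 0.24) and AUX1 at 0.09 (interval -0.23 to 0.41), with limma adjusted p between 0.755 and 0.881. The groups of PIN9, PIN1d, PIN1b and AUX1 did not overlap, while those of PIN1a and PIN2 did. Lack of overlap thus did not set PIN5a and PIN1c apart. Such separation is common with 2 libraries per group, and its share over all loci was not counted at D6 either. Without the filter, PIN10a stood at 0.13 (interval -0.29 to 0.54) and PIN5b at -0.48 (interval -1.03 to 0.08), with limma adjusted p of 0.837 and 0.461.

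By the threshold, 0 of 8 carriers passed at D6, where 119 of all tested loci did (0.522%). At an unadjusted limma p under 0.05 there were 2 of 8 carriers, PIN5a and PIN1c, and 3603 loci (15.8%), and limma voom called 0 carriers and 168 loci. The carriers' median log2 fold change was 0.08 and their median absolute change 0.15, beside -0.02 and 0.17 over all loci. Tissue marker levels in the D6 groups are given beside these counts. The 3 secondary wall cellulose synthase genes summed to between 257 and 304 FPKM in D6_CK and to between 124 and 178 FPKM in D6_100X, and the 6 dividing root tip markers to 246 and 247 FPKM against 204 to 219 FPKM. Of the 3 root markers, LOC_Os02g44310 averaged 1894 FPKM against 1076 FPKM, YSL15 85.8 FPKM against 43.5 FPKM with overlap, and NIP2-1, a silicon transporter gene, 639 FPKM against 694 FPKM. The 9 green tissue markers summed to 5.37 to 7.86 FPKM against 4 to 4.48 FPKM. No marker that was tested passed the threshold at D6. Their part in the carriers' values was not tested.

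**Figure D2:**
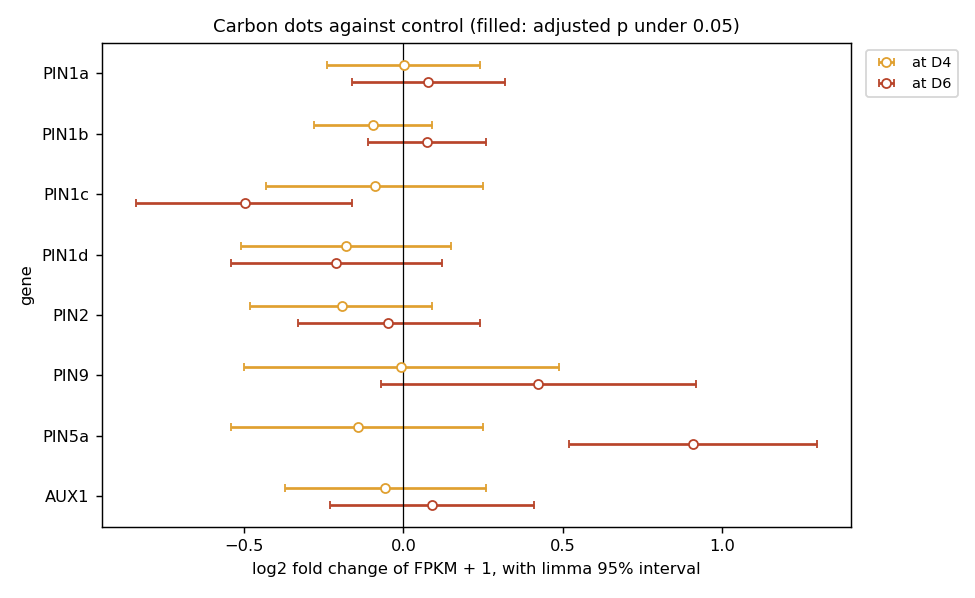
Log2 fold change of carbon dot over control roots at D4 (upper point of each pair) and D6 (lower point) for the 8 tested carriers, on the log2(FPKM + 1) scale with limma 95% intervals. No point is filled, as none had an adjusted p under 0.05, and at D6 the intervals of PIN5a (0.52 to 1.30) and PIN1c (-0.84 to -0.16) do not cross 0.

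The carbon dot effect at D6 was then set against that at D4 in 1 interaction term, which is also the difference between the D6 to D4 changes of carbon dot and control roots. Of the 8 carriers 0 passed, against 2 of all tested loci (0.00877%). PIN5a was nearest, with a difference of 1.05 ± 0.23 on the log2 scale (interval 0.50 to 1.61, limma adjusted p = 0.296). It was the only carrier of the 8 at an unadjusted limma p under 0.05, as were 2112 loci (9.27%). PIN9 differed by 0.43 (interval -0.27 to 1.13) and PIN1c by -0.41 (interval -0.89 to 0.07), with limma adjusted p of 0.709 and 0.603. PIN1a, PIN1b, PIN1d, PIN2 and AUX1 differed by -0.03 to 0.17, with limma adjusted p from 0.688 to 0.983, and limma voom called 0 carriers and 0 loci. Without the filter, PIN10a differed by 0.68 (interval 0.09 to 1.27, limma adjusted p = 0.534) and PIN5b by -0.32 (interval -1.10 to 0.46, limma adjusted p = 0.832).

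D6 and D4 roots were compared within the controls and within the carbon dot groups, which share no library with each other. In control roots PIN9 rose 1.98 times, from 6.36 ± 0.509 to 12.6 ± 2 FPKM (SD, n = 2 each), and was the 1 carrier of 8 to pass. Its log2 fold change was 0.88 ± 0.21 (interval 0.39 to 1.38, limma adjusted p = 0.0454). That call is close to the threshold and was lost without D4_CK replicate 1 (limma adjusted p = 0.130), D4_CK replicate 2 (0.133), D6_CK replicate 1 (0.145), D6_CK replicate 2 (0.193), D6_100X replicate 1 (0.0793) or D6_100X replicate 2 (0.0789), and also without the filter on low values (0.0833). Of all tested loci 2311 passed (10.1%), 1236 of them higher at D6 (5.42%) and 1075 lower (4.72%), so 1 of 8 carriers is near the background.

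Among the other control values, PIN2 was 1.3 times its D4 level at D6 (log2 fold change 0.38 ± 0.12, limma adjusted p = 0.0969) and PIN1d 0.716 times (-0.40 ± 0.14, limma adjusted p = 0.119), and neither passed. PIN5a was at 0.15, with an interval from -0.24 to 0.54. PIN1a (-0.21), PIN1c (-0.23), AUX1 (-0.14) and PIN1b (-0.11) were below 0 with limma adjusted p between 0.229 and 0.553. Without the filter, PIN10a stood at -0.38 (interval -0.79 to 0.04, limma adjusted p = 0.277) and PIN5b at 0.57 (interval 0.02 to 1.13, limma adjusted p = 0.219). At an unadjusted limma p under 0.05 there were 3 of 8 carriers and 6344 loci (27.8%), and limma voom called PIN9 alone among the carriers. The median log2 fold change was -0.12 over the carriers and -0.05 over all loci, and the median absolute change was 0.22 in both.

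In carbon dot roots 4 of the 8 carriers passed, 3 higher and 1 lower at D6. PIN5a rose 2.82 times, from 2.52 ± 0.0435 to 7.10 ± 0.566 FPKM, with a log2 fold change of 1.20 ± 0.16 (interval 0.81 to 1.59, limma adjusted p = 0.00338). PIN9 rose 2.67 times, from 6.45 ± 2 to 17.2 ± 2.21 FPKM, with 1.31 ± 0.21 (interval 0.82 to 1.81, limma adjusted p = 0.00549). PIN2 rose 1.45 times, from 25.8 ± 2.6 to 37.4 ± 2.71 FPKM (log2 fold change 0.52 ± 0.12, limma adjusted p = 0.0192). PIN1c fell to 0.589 times its D4 level, from 6.92 ± 1.06 to 4.07 ± 0.61 FPKM (log2 fold change -0.64 ± 0.14, limma adjusted p = 0.0173). The D6_100X and D4_100X libraries did not overlap in these 4 genes, nor in PIN1a, PIN1b and PIN1d, which did not pass. How many of all loci were separated in this way was not counted, so the separation is not read as a trait of the carriers.

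The background in this comparison was broad: 6789 of 22794 loci passed (29.8%), 3309 higher (14.5%) and 3480 lower (15.3%). The carriers' median absolute log2 change was 0.47 against 0.31 over all loci, and their median signed change 0.04 against -0.04. Calls of PIN5a and PIN9 held without any 1 library. PIN2 lost its call without D4_100X replicate 2 (limma adjusted p = 0.0767), D6_100X replicate 1 (0.0599) or D6_100X replicate 2 (0.118), and PIN1c without D4_100X replicate 1 (0.0613) or D6_100X replicate 1 (0.104).

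PIN1d was at 0.696 times its D4 level in carbon dot roots (log2 fold change -0.43 ± 0.14, limma adjusted p = 0.0568) and passed without either D4_CK library (0.0388 and 0.0396), which enter the fit through the shared spread. PIN1a (-0.14, interval -0.38 to 0.10), PIN1b (0.07, interval -0.12 to 0.25) and AUX1 (0.01, interval -0.31 to 0.33) did not pass. Without the filter, PIN10a stood at 0.31 (interval -0.11 to 0.72) and PIN5b at 0.25 (interval -0.30 to 0.81), with limma adjusted p of 0.285 and 0.502. At an unadjusted limma p under 0.05 there were 5 of 8 carriers and 9631 loci (42.3%), and limma voom called 4 carriers and 6616 loci. The 3 secondary wall markers, whose D4 sums lay between 561 and 749 FPKM, fell at D6 in both the control and the carbon dot comparison, and the dividing root tip markers summed to between 213 and 273 FPKM at D4, with none called. Of the root markers, NIP2-1 rose in controls (1.49, limma adjusted p = 0.0223) and in carbon dot roots (1.54, limma adjusted p = 0.00756), and LOC_Os02g44310 fell in carbon dot roots (-1.65, limma adjusted p = 0.00366). The part of these markers in the carriers' values was not tested.

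**Figure D3:**
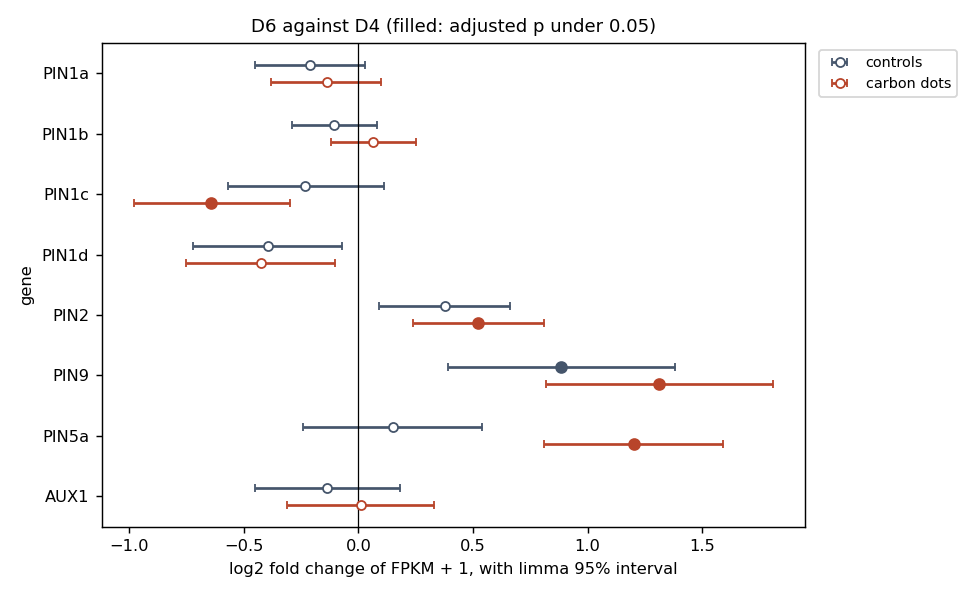
Log2 fold change of D6 over D4 roots in controls (upper point of each pair) and carbon dot groups (lower point) for the 8 tested carriers, on the log2(FPKM + 1) scale with limma 95% intervals. Filled points have an adjusted p under 0.05: PIN9 in both, and PIN5a, PIN2 and PIN1c in the carbon dot groups.

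The summed level of the 9 PIN genes lay in a narrow range while its makeup differed between times. PIN genes outside these 9 are not in the sum or the shares, among them PIN5c, LOC_Os09g32770. PIN5c averaged 7.31 FPKM in D4_CK, 5.79 in D4_100X, 15.9 in D6_CK and 26.3 in D6_100X. The sum was 207 and 189 FPKM in D4_CK, 191 and 182 in D4_100X, 193 and 200 in D6_CK, and 205 and 210 in D6_100X, so the D4 and D6 libraries overlapped. PIN1a and PIN1b together made up 72.8% to 76.1% of it in the 4 D4 libraries and 65.7% to 66.6% in the 4 D6 libraries. PIN2 made up 13.2% to 15.5% at D4 and 17.3% to 20.3% at D6. These 2 shares separated the times without overlap, in controls and carbon dot roots alike. They are shares of an FPKM sum within a library, given as a description.

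Among the less abundant PIN genes the D6_100X libraries stood apart. PIN9 made up 2.77% to 4.12% of the PIN sum at D4, 5.82% and 7% in D6_CK, and 9.17% and 7.45% in D6_100X. PIN5a made up 1.27% to 1.81% in the first 6 libraries and 3.66% and 3.19% in D6_100X. PIN1c and PIN1d together made up 6.26% to 7.47% at D4, 5.31% and 5.42% in D6_CK, and 3.48% and 3.98% in D6_100X. The ratio of PIN5a to PIN1c was therefore 0.333 to 0.568 in those 6 libraries and 2.06 and 1.49 in D6_100X, a contrast chosen after the values were seen and not tested.

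**Figure D4:**
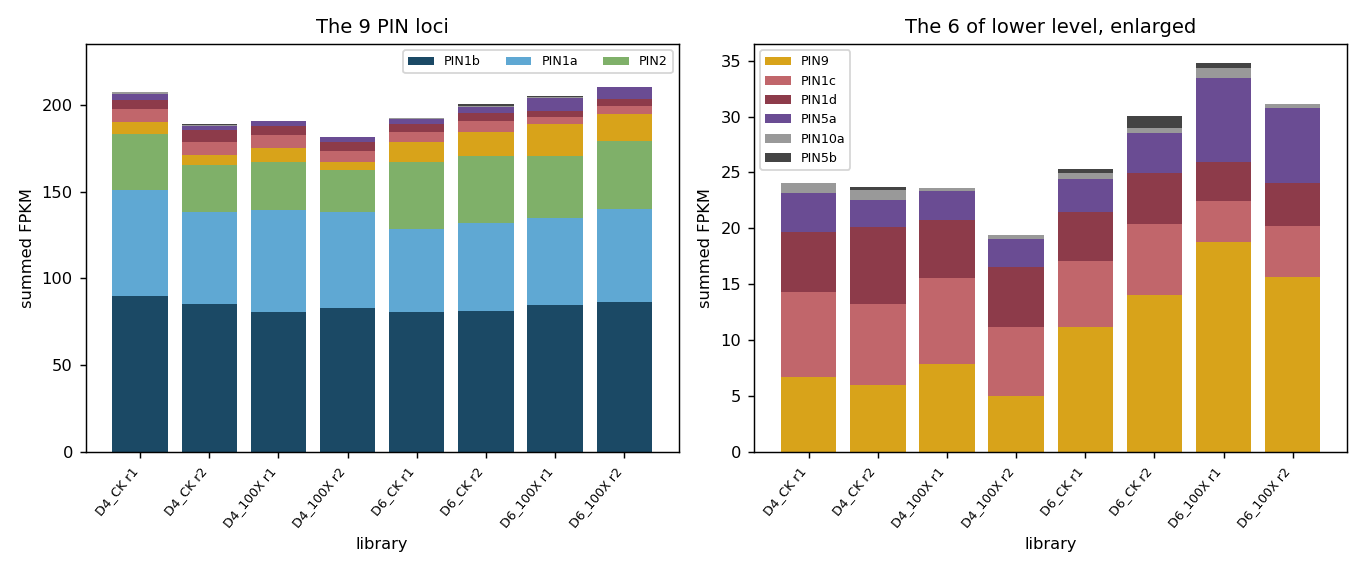
Stacked FPKM of the 9 PIN genes in each library (left, linear axis from 0) and of the 6 of lower level on an enlarged axis (right), with replicates marked r1 and r2 and the same colours in both panels. The whole stack stays between 182 and 210 FPKM, and in the right panel the PIN9 and PIN5a segments are tallest in the D6_100X libraries.

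Each tested carrier was next set beside the other tested carriers and the 31 tested genes of a list of 33 further auxin genes to find the closest pattern over the 8 libraries, measured as the root mean square difference of log2(FPKM + 1) after each gene's own mean was taken off. There were 38 candidates for each gene. PIN1a and PIN1b were each other's closest (0.099), and AUX1 was closest to ARF19, an auxin response factor gene (0.104), with PIN1b next among the carriers (0.110). PIN2 was closest to PID, whose Arabidopsis counterpart is a kinase that phosphorylates PIN proteins (0.114), and PIN9 to GH3.8, which encodes an enzyme that joins auxin to amino acids (0.146). PIN1c (0.150) and PIN1d (0.076) shared the same closest gene, LOC_Os03g46330, and were each other's closest carrier (0.165). PIN5a had the least similar closest gene, LOC_Os05g37470 (0.264), with PIN9 as its closest carrier (0.315). For PIN1a and AUX1 the difference to the closest gene is about as large as their own deviation from a flat line (0.112 each), and for PIN1b it is larger than its own deviation (0.049).

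The auxin genes of that list served as a setting for the carriers. At D4, at D6 and in the interaction 0 of 31 passed by limma with adjustment over all loci. At an unadjusted limma p under 0.05 there were 0, 9 and 4 of 31, beside 1.9%, 15.8% and 9.27% of all loci. From D4 to D6, 4 of 31 rose and 3 fell in controls (median log2 fold change 0.05), beside 5.42% and 4.72% of all loci. In carbon dot roots 9 of 31 rose and 6 fell (median 0.28), beside 14.5% and 15.3% of all loci. Among the genes called, SAUR39 passed the filter on low values only through D6 libraries, and LOC_Os01g51780 only through D4 libraries. Their calls are not independent of that filter. In the carbon dot comparison 2 of the 7 other carrier genes rose and 1 fell, 4 of the 14 perception and response factor genes rose and 3 fell, and 2 of the 5 response genes rose and 1 fell. Of the 5 transport regulators 1 rose and 1 fell. Over all loci 29.8% passed in this comparison, and these groups are small.

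The most changed of these genes included another short PIN. PIN5c, LOC_Os09g32770, measured 9.39 and 5.22 FPKM in D4_CK, 8.22 and 3.36 in D4_100X, 13.7 and 18.2 in D6_CK, and 28.4 and 24.3 in D6_100X. Like PIN5a it was highest in both D6_100X libraries, but unlike PIN5a its D6_CK libraries were also above all D4 libraries. It rose in carbon dot roots (log2 fold change 2.10 ± 0.39, limma adjusted p = 0.0089), and it stood at 0.70 ± 0.39 for carbon dots against control at D6 (limma adjusted p = 0.428). GH3.8, the closest in pattern to PIN9, went from 8.28 ± 3.19 to 22.3 ± 0.728 FPKM in carbon dot roots (log2 fold change 1.37 ± 0.23, limma adjusted p = 0.00698).

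SAUR39, whose product acts against auxin synthesis and transport in rice, rose from 0.371 ± 0.15 to 1.64 ± 0.525 FPKM in controls (log2 fold change 0.94 ± 0.21, limma adjusted p = 0.042). It rose from 0.106 ± 0.15 to 4.29 ± 0.824 FPKM in carbon dot roots (2.26 ± 0.21, limma adjusted p = 0.00111). Its D4 libraries all lay between 0 and 0.477 FPKM, so SAUR39 passed the filter on low values only through its D6 libraries. Both of these tests are therefore not independent of how the gene entered, and the D4 values are near the floor. ARF5, an auxin response factor gene, fell from 7.24 ± 0.992 to 3.72 ± 0.0383 FPKM in controls (-0.80 ± 0.12, limma adjusted p = 0.0152). ARF5 also fell in carbon dot roots (-0.75 ± 0.12, limma adjusted p = 0.00615). LOC_Os02g02890 rose in controls (0.76 ± 0.15, limma adjusted p = 0.0281) and in carbon dot roots (0.92 ± 0.15, limma adjusted p = 0.0058). LOC_Os03g05510 fell in controls (-0.73 ± 0.18, limma adjusted p = 0.0482) and in carbon dot roots (-1.67 ± 0.18, limma adjusted p = 0.00152). Neither of these identifiers is paired with a name in the sources used here.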

How the data were processed

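The tools named in the submitters' processing notes are featureCounts 1.6.4, HISAT2, SAMtools and fastp. Settings, genome build, annotation and use of strand: not given in the sources used here. The deposited table holds FPKM per locus, computed by the authors. Low values step in whole reads (tolerance 0.005 reads, plus 3e-07 of the reads), and reads and gene lengths were recovered for 100% of the 34269 loci above 0 in any library, giving 22.65 to 22.66 M reads per library. On 1 kilobase, 1 read was worth 0.0437 FPKM. Reads served only for depth, low genes and the limma voom alternative.

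FPKM are not counts, so tests used limma 3.58.1 under R 4.3.3 (lmFit, contrasts.fit, eBayes with trend) on log2(FPKM + 1), a scale that understates changes of low genes. All 8 libraries entered 1 model with a mean per group, which left 4 residual degrees of freedom and gave 5 contrasts. Loci reaching 1 FPKM in 2 or more libraries (22794) were tested, with Benjamini-Hochberg adjustment over all of them. The script was checked on simulated data.

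All 10 carriers are named in every contrast, PIN10a and PIN5b from a fit without the filter. Of the 33 other auxin genes, those that passed are named, or the 4 most changed where more passed. Symbols were accepted where the RefSeq gene table (assembly ASM3414082v1) holds them on the same chromosome within 0.1 chromosome lengths, which was so for 8 of 10 carriers, 20 of 33 auxin genes and 15 of 22 tissue markers. The carriers, gene lists and tests were chosen with earlier results of these data known. Alternatives changed the pseudocount, filter, centring, libraries in the fit, variance moderation, replicate block and test.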

Additional observations from a re-analysis of the deposited data

How the results depend on the processing

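Each library left out in turn and 9 other settings gave 662 values of carrier fold changes, of which 626 kept direction and side of the threshold, 13 fell short of it, 6 newly passed it and 17 reversed in sign. All reversals were of values that had not passed. Centring on the median moved PIN1a at D4 to -0.003. With 1 library left out, the log2 fold change at D4 ranged from -0.099 to 0.105 for PIN1a, -0.226 to 0.047 for PIN1c, -0.285 to 0.269 for PIN9, -0.336 to 0.051 for PIN5a and -0.221 to 0.107 for AUX1. That of PIN2 at D6 ranged from -0.121 to 0.023, that of PIN5a from D4 to D6 in controls from -0.044 to 0.343, and that of AUX1 in carbon dot roots from -0.153 to 0.174. The interaction ranged from -0.026 to 0.177 for PIN1a, -0.187 to 0.126 for PIN1d and -0.016 to 0.311 for AUX1. At D6, 1 carrier passed, PIN5a, in place of 0 when the D6 libraries were fitted alone, with 697 loci in place of 119. For D6 against D4 in controls, 0 carriers passed without the filter on low values, and 0 to 1 with 1 library left out. In carbon dot roots 2 to 5 passed with 1 library left out. Fitted on the carbon dot libraries alone, PIN1c had a limma adjusted p of 0.0627. PIN5a and PIN1d were not tested under a mean FPKM of at least 5. At D6 the number of all loci that passed ranged from 0 to 1400 over these settings. Replicate numbers are shared in the labels only, and same-numbered libraries deviated alike at D4 (correlation 0.602) but not at D6 (-0.112), so pairing was not assumed. With the replicate block over all 8 libraries 0, 0, 0, 1 and 4 carriers passed at D4, at D6, in the interaction, in controls and in carbon dot roots. With the replicate block within D4 only, 1 carrier passed at D6 (PIN5a, adjusted p = 0.0251), 2 in controls (PIN2, adjusted p = 0.0194, and PIN9), and PIN1d passed in carbon dot roots (0.029), while calls over all loci went from 119 to 1400 at D6, from 2311 to 5170 in controls and from 6789 to 9523 in carbon dot roots. The causes were not tested. Groups of 2 libraries and low read numbers limit PIN10a and PIN5b most.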
